A study of Mus musculus with 28 samples.

Results

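RNA sequencing compared small-intestinal organoids that received BMP7 with organoids that received no ligand. The comparison held 3 BMP7 samples (replicates II, III and VI) and 4 untreated samples (replicates II, III, IV and VI), which were 7 of the 28 samples of the series and 7 of the 20 samples in the BMP table. They were chosen by their labels alone. Organoids are epithelial cultures grown from crypts in a gel matrix. All 7 samples were wild-type C57BL/6, and the treated ones received recombinant BMP7 at 500 ng/ml for 24 h. Per the labels, crypts were first grown in ENR medium without added BMP or Tgfb, then moved to fresh matrix before ligand was added. ENR is the usual name for medium with EGF, noggin and R-spondin, and noggin is itself a BMP antagonist. The labels do not say whether noggin was present during the treatment, nor whether the replicates came from separate animals or cultures, nor what source the ligand had. The other ligands of the table were used only where the BMP7 samples were tested directly against BMP5, BMP2 or BMP4, given at the same dose and time. The series title names the maturation of villus-tip enterocytes as the study's subject.

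BMP7 is a secreted ligand of the Tgfb superfamily. It binds a complex of type I receptors (Acvr1 and the Bmpr1 receptors) and type II receptors (Bmpr2 and the Acvr2 receptors), which phosphorylate Smad1, Smad5 and Smad9 so that they enter the nucleus with Smad4. The Id genes, which encode inhibitors of basic helix-loop-helix factors, and the inhibitory Smads Smad6 and Smad7 are the textbook targets. In the intestine, BMP signalling is low at the crypt base, where stem cells divide, and high on the villus, where enterocytes mature and are shed.

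BMP7 changed a large share of the transcriptome. By limma with Benjamini-Hochberg adjustment, 4773 of 14746 genes passed an adjusted p of 0.05 (32.4%). Of these, 2833 were higher (19.2%) and 1940 were lower (13.2%) with BMP7, and 1724 had changed at least 2-fold, 1185 of them upwards and 539 downwards. With the replicate number as a block, 3541 were higher and 3148 lower. With equal totals imposed on all samples the split was 2587 higher and 2725 lower, and with quantile normalization it was 2716 and 2938. Under these 2 scalings higher genes no longer outnumbered lower ones. Among the calls, 2706 of the higher and 1726 of the lower genes were protein coding. Without BMP7 replicate II 3517 genes passed.

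The 7 samples separated by treatment, and the BMP7 samples differed in how far they had moved. The libraries held from 21705913 to 24784834 reads, each read standing for 0.8258 to 0.9621 normalized counts, the unit of all levels below. Spearman correlations across genes were 0.985 to 0.993 among untreated samples, 0.988 to 0.990 among BMP7 samples and 0.949 to 0.968 between the groups. Over the 2833 higher genes, the median log2 distance from the untreated mean was 0.86 in BMP7 II, 0.71 in BMP7 III and 0.90 in BMP7 VI. Over the 1940 lower genes it was -0.72, -0.55 and -0.67. BMP7 III lay furthest from the untreated mean in 9.18% of the higher and 14.5% of the lower genes, and these shares describe the same samples that made the calls.

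BMP7 raised its textbook targets strongly. Of 14 tested BMP target and feedback genes, 10 were higher and 0 lower, and their median log2 difference was 2.66, against -0.05 over all genes tested. Id1 (ENSMUSG00000042745) was at 114, 112, 134 and 171 normalized counts in the untreated samples II, III, IV and VI and at 2330, 1480 and 1800 in the BMP7 samples II, III and VI. Its log2 difference, BMP7 minus untreated on the log2(normalized count + 1) scale, was 3.80 ± 0.19 (SE; adjusted p = 1.25e-09, limma). Id3 (ENSMUSG00000007872) was at 33.7, 29.9, 20.4 and 32.2 without ligand and at 1240, 698 and 594 with it, a difference of 4.76 ± 0.42 (adjusted p = 1.88e-07, limma). The groups were far apart for both genes, and BMP7 II was the highest sample in each.

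The start regions of 3 targets that rose are shown because the inhibitory and Id genes are read as the direct arm of BMP signalling. Each line holds the 250 bases before a RefSeq transcription start, 5′ to 3′ in the gene's direction, on GRCm38.p6, which is not the build the authors named. Capitals mark GGCGCC and GGAGCC, the GC-rich motifs described for BMP-activated Smads, searched on both strands, so that GGAGCC also shows as GGCTCC. Id2 lies on the minus strand at chr12:25096093-25096342, Id3 on the plus strand at chr4:136143572-136143821 and Smad6 on the minus strand at chr9:64022060-64022309.
Id2: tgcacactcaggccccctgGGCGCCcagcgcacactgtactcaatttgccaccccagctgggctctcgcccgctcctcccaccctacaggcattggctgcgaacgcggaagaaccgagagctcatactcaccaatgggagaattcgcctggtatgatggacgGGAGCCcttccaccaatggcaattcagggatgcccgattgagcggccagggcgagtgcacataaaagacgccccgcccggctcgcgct
Id3: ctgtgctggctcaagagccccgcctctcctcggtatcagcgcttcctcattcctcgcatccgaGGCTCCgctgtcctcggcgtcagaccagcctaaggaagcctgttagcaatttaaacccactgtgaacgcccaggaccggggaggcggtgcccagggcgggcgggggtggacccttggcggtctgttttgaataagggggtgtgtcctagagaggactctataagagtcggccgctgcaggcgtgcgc
Smad6: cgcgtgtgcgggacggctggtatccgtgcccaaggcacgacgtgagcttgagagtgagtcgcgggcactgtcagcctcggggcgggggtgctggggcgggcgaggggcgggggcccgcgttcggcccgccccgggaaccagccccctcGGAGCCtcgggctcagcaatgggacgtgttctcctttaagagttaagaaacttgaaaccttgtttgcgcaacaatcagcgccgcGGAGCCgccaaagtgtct
Id2 held GGCGCC with its first base 231 bases before the start and GGAGCC at 88 bases. Id3 held GGAGCC on the reverse strand at 187 bases, and Smad6 held GGAGCC at 102 and at 18 bases. The RefSeq table held 13 of the 17 genes of the target list. Either motif was in 5 of the 7 windows of the targets that rose (71.4%) and in 9 of the 14 windows of the whole target list (64.3%). It was in 45.9% of the windows of all genes higher with BMP7, near the 44.2% for all genes tested. Of all 32851 windows 31.7% held it. Such a match describes letters and is not a binding site, and the windows of GC-rich promoters share their base composition. Hey1, Id1, Smad7 and Bambi had no entry.

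The inhibitory Smads rose with the Id genes. Smad7, which recruits ubiquitin ligases to type I receptors, went from 103, 106, 145 and 160 normalized counts to 1290, 614 and 1020, a log2 difference of 2.87 ± 0.26 (adjusted p = 2.02e-07, limma). Smad6, an inhibitor with preference for BMP signals, went from 12.4, 32.4, 8.87 and 36.3 to 211, 156 and 178 (log2 3.17 ± 0.43, adjusted p = 1.66e-05, limma). The untreated values of Smad6 spread more than 4-fold, and all lay below every BMP7 sample. Id2 rose from 241 to 421 up to 900 to 1450 (log2 1.78). Id4, Bambi and Tob1, named here after their values were seen, did not pass, with log2 differences of -0.19, 0.16 and 0.30. Tob1 passed with the replicate block (adjusted p = 0.00337).

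Receptors, Smads, ligands and antagonists moved in both directions. Of 10 tested receptors and co-receptors 3 were higher and 2 lower, beside 19.2% higher and 13.2% lower over all genes tested. Acvr1, the type I receptor that BMP7 binds, went from 376, 411, 372 and 388 normalized counts to 1320, 1120 and 1300 (log2 1.68 ± 0.12, adjusted p = 2.28e-08, limma). Bmpr2 (log2 1.05) and Tgfbr2 (log2 0.88), type II receptors for BMPs and for Tgfb, also rose. The main BMP type I receptor gene Bmpr1a was at 4000 to 4940 and at 3980 to 4550 and did not pass. Rgmb, a membrane co-receptor for BMPs that also marks crypt cells, fell from 3590, 3440, 3840 and 3270 to 903, 896 and 839 (log2 -2.0 ± 0.17, adjusted p = 1.29e-07, limma). Acvr1c, an activin and Nodal receptor, fell by 1.31 on the log2 scale. Among 6 Smad transducers, Smad9 (log2 2.52), Smad3 (0.77), Smad2 (0.34) and Smad5 (0.28) rose, whereas Smad4 (0.12) and Smad1 (-0.17) did not pass. The call for Smad5 was lost under both other scalings and without any 1 of BMP7 II or untreated II, III and VI. Smad1 was lower with the replicate block (adjusted p = 0.0314).

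The cells' own ligands changed with the added one. Of 13 tested ligand genes 5 were higher and 3 lower, beside 19.2% and 13.2% over all genes tested. Bmp3, whose product can compete with other BMPs at receptors, fell from 1330, 1000, 1290 and 1020 normalized counts to 25.4, 20 and 41.4 (log2 -5.33 ± 0.41, adjusted p = 4.37e-08, limma). The gene for the added ligand, Bmp7, also fell, from 591, 592, 422 and 487 to 162, 209 and 130 (log2 -1.65 ± 0.46, adjusted p = 0.0100, limma). Tgfb1 went the other way, from 50.6 to 91.3 up to 417 to 595 (log2 2.91). Bmp1, a protease of the tolloid family that carries a BMP name (log2 1.87), and Bmp8b (1.33) rose as well. Bmp4, named after its values were seen, had 1 read in the 4 untreated samples together and 42 reads in the 3 BMP7 samples. Of 5 tested antagonists, 4 were higher and 0 lower, led by Fst, which binds activins (log2 2.35), and Fstl1 (1.91).

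**Figure D1:**
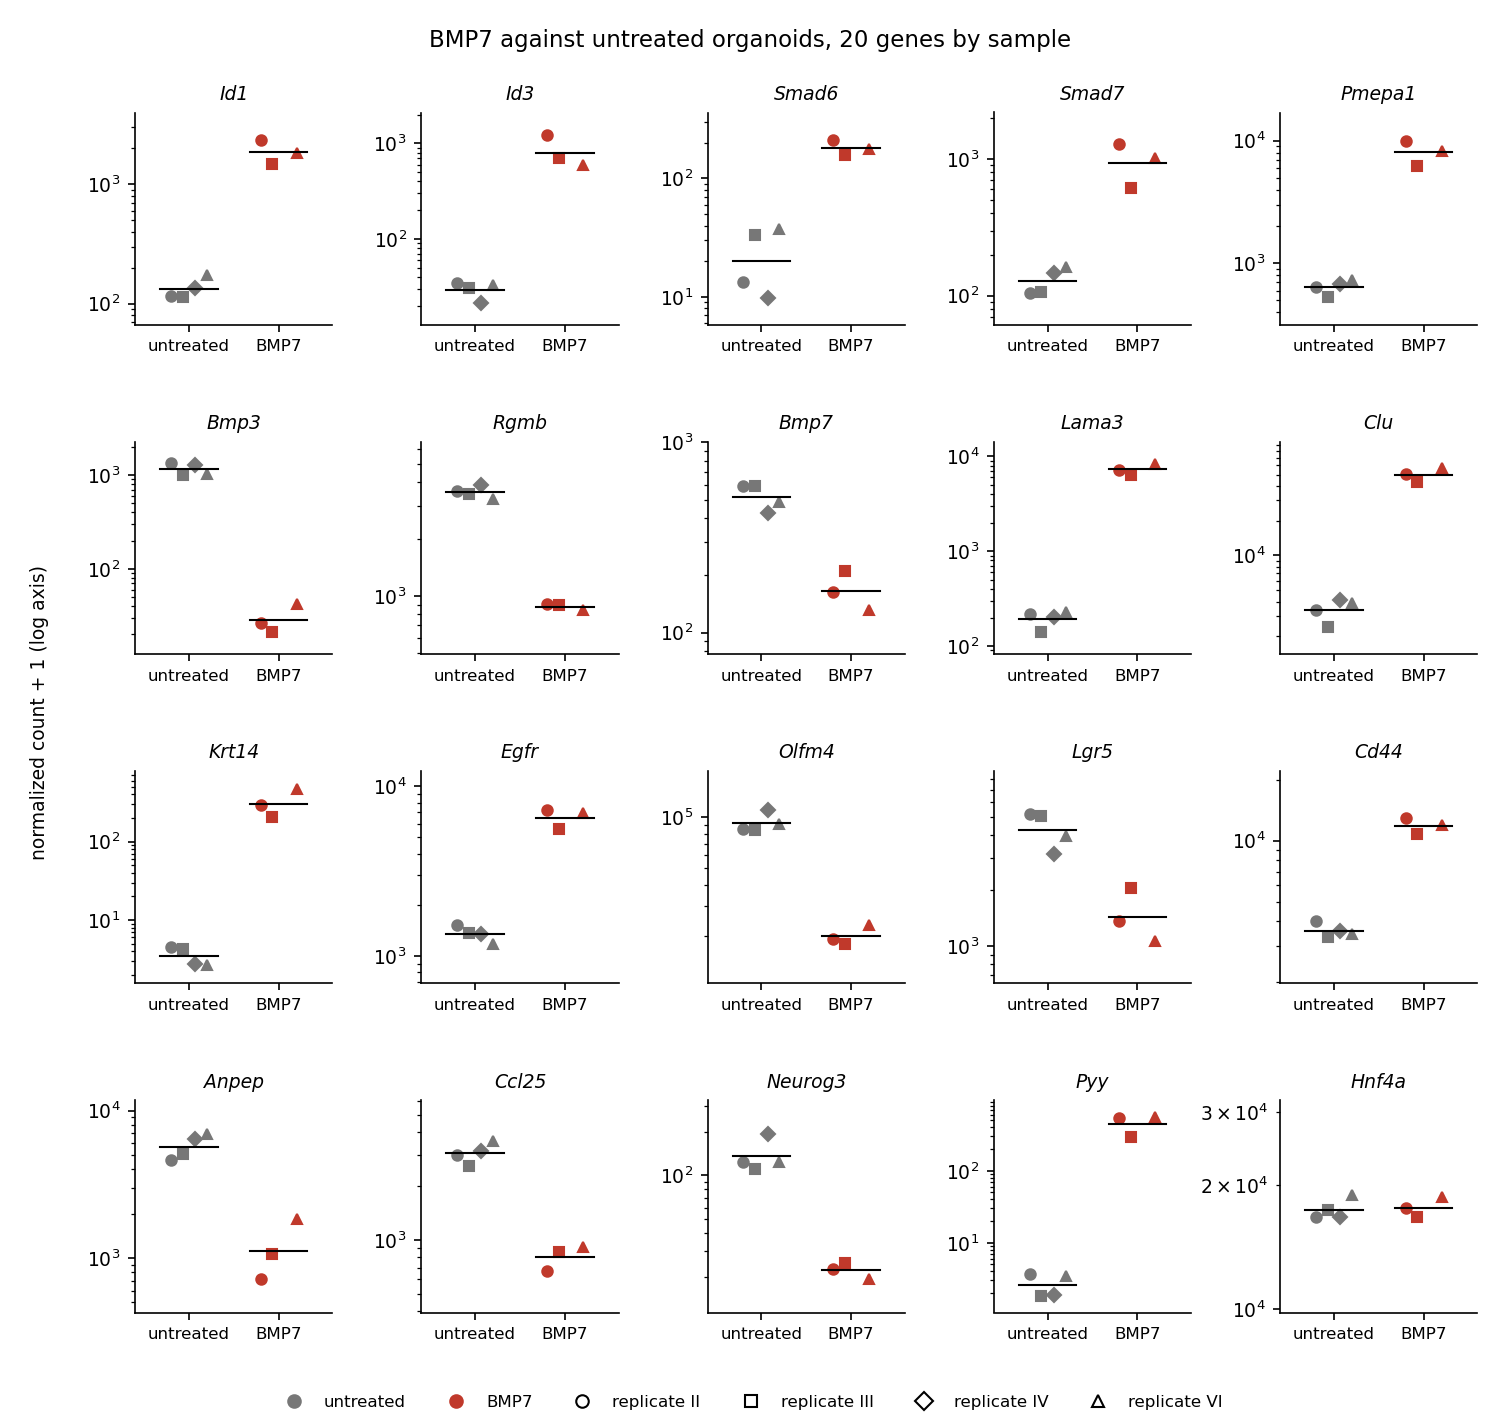
Normalized counts plus 1 on a log axis for 20 genes in the 4 untreated (grey) and 3 BMP7 (red) samples, with marker shape for the replicate number and a black line at the mean of the log values. For every gene drawn except Hnf4a the groups do not overlap, which was so for 42.4% of all genes tested.

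Genes usually followed as Tgfb targets rose together. Of 22 matrix and feedback genes 18 were higher and 1 lower, with a median log2 difference of 1.67. Pmepa1, which dampens Smad2 and Smad3 signalling, went from 638, 535, 672 and 730 normalized counts to 9980, 6250 and 8250 (log2 3.64 ± 0.22, adjusted p = 5.22e-09, limma). Skil, a Smad corepressor, rose from between 828 and 1070 to between 4830 and 5860 (log2 2.43), and Itgb6, a subunit of the integrin that activates latent Tgfb, from between 639 and 892 to between 3320 and 4420 (log2 2.45). Fn1, fibronectin, was at 17.4 to 40.8 and rose to 226 to 522 (log2 3.81). Tgfbi was the 1 gene of the list that fell (log2 -1.33).

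The adhesion machinery rose nearly throughout. Of 19 integrin and laminin genes 18 were higher and 0 lower (median log2 1.58). Lama3, the alpha chain of laminin-332, was at 217, 139, 200 and 230 normalized counts and reached 7250, 6420 and 8400 (log2 5.24 ± 0.29, adjusted p = 2.15e-09, limma). The collagen receptor subunit Itga2 (log2 1.84) and the hemidesmosome subunit Itgb4 (1.58) rose too. Of 20 actin and contractile genes 17 were higher and 1 lower (median 1.11), among them Flna, an actin crosslinker (log2 1.87), Tagln2 (1.25), Actn1 (1.14) and Tpm1 (0.94). Cnn3, a calponin, was the lower one (log2 -0.39), and its call was lost when any 1 of BMP7 II, BMP7 III, BMP7 VI or untreated II, III and IV was left out.

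Keratins and genes of fetal-like, regenerating epithelium formed the next large group. Of 12 tested keratins 10 were higher and 0 lower (median log2 1.62). Krt14, a keratin of basal layers of stratified epithelia, was at 3.55, 3.32, 1.77 and 1.65 normalized counts and reached 289, 205 and 467 (log2 6.45 ± 0.66, adjusted p = 9.60e-07, limma). The simple-epithelial keratins Krt8 (log2 1.64), Krt18 (1.59) and Krt19 (1.60), already among the abundant transcripts, rose about 3-fold. Of 19 fetal-like and regenerative genes 16 were higher and 0 lower (median 2.32). Clu, a marker of the revival stem cell state, went from 3360, 2390, 4110 and 3900 to 50900, 43100 and 56500 (log2 3.89 ± 0.31, adjusted p = 6.35e-08, limma). Anxa8 (log2 4.18), Anxa1 (3.52), Il1rn (2.72) and Anxa3 (2.14) moved with it. Ly6a, the gene for Sca-1, rose less (log2 1.35), and its call was lost without BMP7 replicate III.

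Villus-tip genes rose while digestive enzyme genes fell. Of 18 villus-tip genes 11 were higher and 0 lower (median log2 1.40). Egfr, the EGF receptor, went from 1510, 1370, 1340 and 1170 normalized counts to 7230, 5570 and 6900 (log2 2.28 ± 0.17, adjusted p = 4.10e-08, limma), and Krt20, a keratin of mature villus cells, from 1510, 1620, 2400 and 2820 to 9190, 8810 and 18800 (log2 2.51). Nt5e, the ecto-5′-nucleotidase CD73, rose from between 9.13 and 27.5 to between 223 and 456 (log2 4.12). The purine genes Ada and Slc28a2 rose unevenly. Ada was at 868, 1430 and 3990 and Slc28a2 at 387, 713 and 1770 in BMP7 II, III and VI, and neither call stood without BMP7 replicate VI (that of Ada also fell away without untreated replicate II). Klf4 (log2 0.75), Cdkn1a (1.17) and Cdh1 (1.02) also rose, and Apoa4, at 5210 to 15700 and 5490 to 23800, did not pass.

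Of 17 brush border hydrolases 0 were higher and 12 lower (median log2 -1.28). Anpep, aminopeptidase N, fell from 4650, 5100, 6440 and 6930 normalized counts to 725, 1060 and 1830 (log2 -2.35 ± 0.30, adjusted p = 1.01e-05, limma). Sis, sucrase-isomaltase, fell from 16700, 16200, 37500 and 27900 to 4510, 8350 and 8120 (log2 -1.78 ± 0.34, adjusted p = 0.000514, limma). The meprin subunit Mep1a (log2 -1.88) and the peptidase Dpp4 (-1.28) fell, and Alpi, the intestinal alkaline phosphatase, was at 8910 to 13400 and 9230 to 14400 and did not pass. Without BMP7 replicate II, 7 of the 17 were lower. In several of these genes untreated IV and VI were the higher untreated samples, as for Sis, and 14 of the 17 were lower with the replicate block.

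Nutrient transporter genes fell more often than they rose. Of 16 sugar, peptide and amino acid transporters 2 were higher and 7 lower (median log2 -0.84). The sodium-glucose transporter gene Slc5a1 fell from 7040, 7560, 10700 and 10300 normalized counts to 2430, 3260 and 2950 (log2 -1.61 ± 0.29, adjusted p = 0.000339, limma), and the fructose carrier Slc2a5 and the amino acid carrier Slc6a19 each fell by 1.71 on the log2 scale. Without untreated replicate IV, 4 of the 16 were lower. The phosphate carrier gene Slc34a2 rose from between 55.9 and 130 to between 540 and 622 (log2 2.93). The other higher transporter gene was Slc7a7, an amino acid carrier (log2 0.50, adjusted p = 0.0491, limma), whose call was lost under 10 of the 17 alternatives. Of 21 fat absorption genes 4 were higher and 3 lower (8 and 6 with the replicate block), shares near the 19.2% and 13.2% over all genes tested. Acsl3 (log2 1.39), Dgat2 (1.35) and the lipid droplet gene Plin2 (1.17) rose, whereas the fatty acid binding protein genes Fabp1 (-0.99) and Fabp2 (-1.0) fell, and neither fall passed without BMP7 replicate II. That of Fabp1 was also lost without untreated IV or VI. Apob, at 17000 to 37700 and 28600 to 51200, passed with the replicate block (adjusted p = 0.000148) and not without it (adjusted p = 0.118). Of 20 cholesterol synthesis genes 3 were higher and 0 lower (5 and 3 with the block), the higher share again near that over all genes, and none of the 3 passed without BMP7 replicate II, BMP7 replicate VI or untreated replicate IV.

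**Figure D2:**
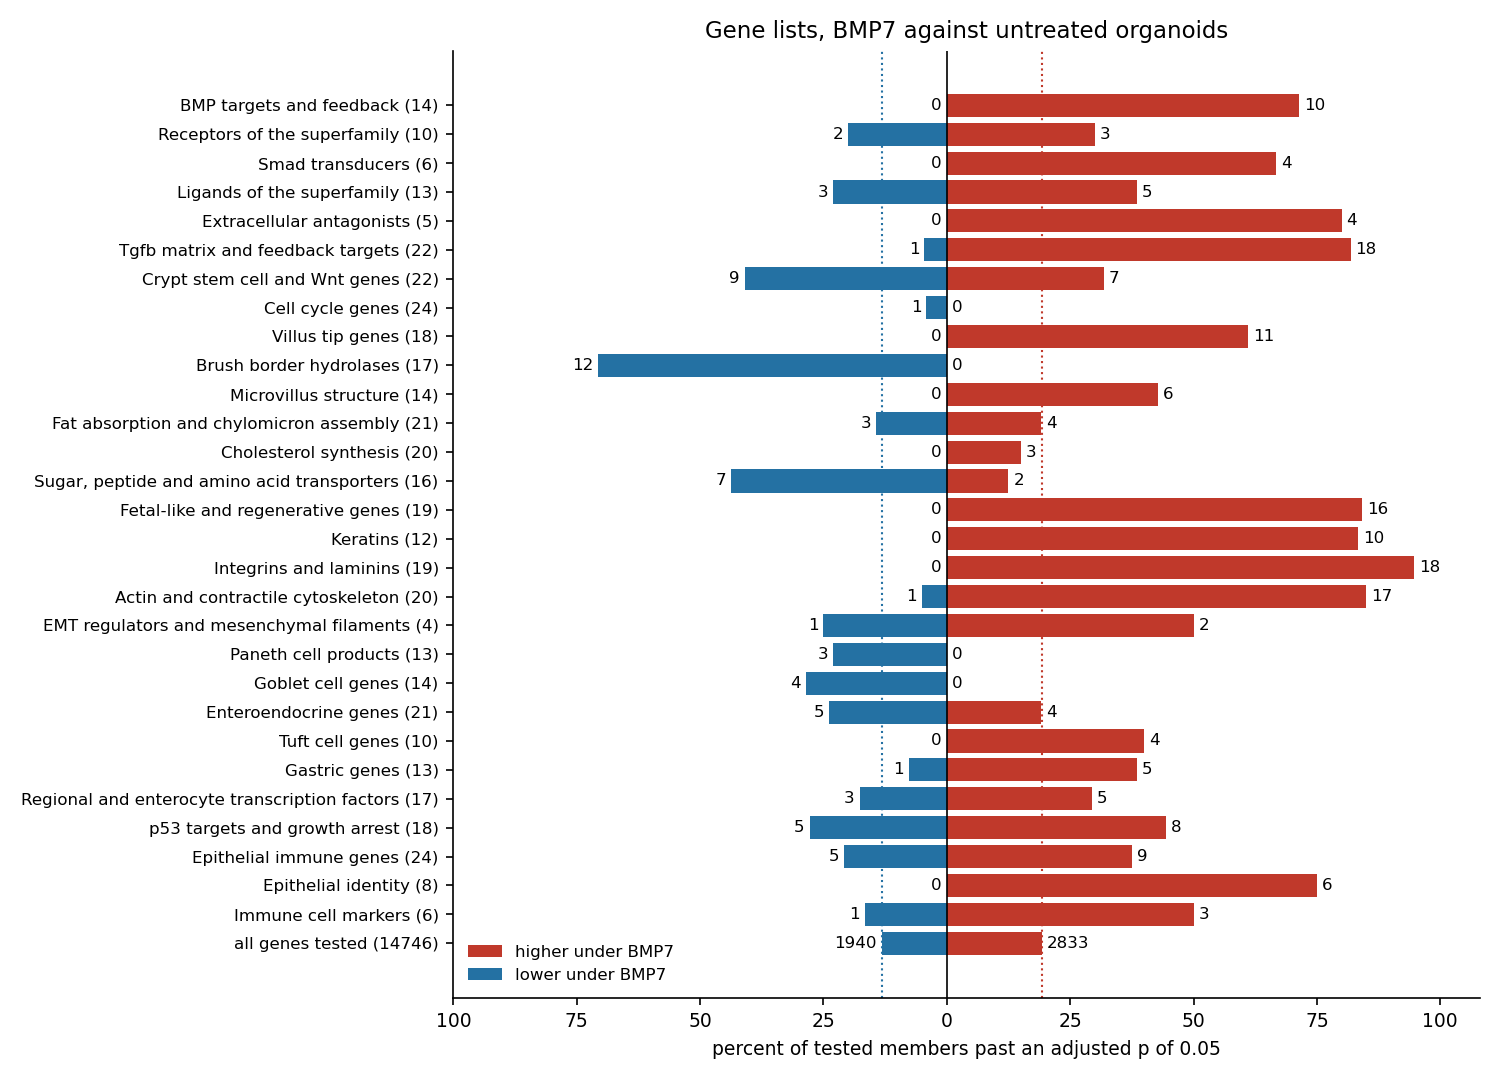
Percent of the tested members of each gene list that passed an adjusted p of 0.05, higher with BMP7 to the right (red) and lower to the left (blue), with counts at the bar ends, the number tested in brackets and dotted lines at the shares over all 14746 genes. Adhesion, actin, keratin, fetal-like and Tgfb target lists extend to the right, and brush border hydrolases to the left. The mesenchymal list and the endothelial, neural and red cell list, with few tested members, are not drawn.

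Crypt genes did not move as 1 group. Of 22 stem cell and Wnt genes 7 were higher and 9 lower (median log2 0.06, and -0.01 with equal totals). Olfm4, an abundant stem cell marker, fell from 85700, 84000, 110000 and 91100 normalized counts to 19300, 18000 and 23400 (log2 -2.20 ± 0.53, adjusted p = 0.00404, limma). The Wnt target and stem cell receptor gene Lgr5 fell from 5210, 5050, 3150 and 3950 to 1360, 2050 and 1070 (log2 -1.56 ± 0.40, adjusted p = 0.00632, limma), and Smoc2 fell by 2.59 on the log2 scale. In the same libraries Cd44, a crypt surface glycoprotein and Wnt target, rose from between 3350 and 4000 to between 10800 and 13000 (log2 1.72). Ephb3 (log2 0.63) and Rnf43 (0.53) rose as well. Ascl2, the stem cell transcription factor, was at 290 to 363 and 349 to 439 and did not pass, and neither did the Wnt feedback gene Axin2 (log2 -0.54, adjusted p = 0.0715, limma), which passed as lower with the replicate block (adjusted p = 0.00151), in the 2-group fit, under both other scalings and without BMP7 replicate II.

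Cell cycle genes mostly stayed short of the threshold. Of 24 genes 0 were higher and 1, Tyms, the thymidylate synthase gene, was lower, with a median log2 difference of -0.40. The difference was positive in only 1 of the 24, and the median was -0.25, -0.30 and -0.64 in BMP7 II, III and VI. The count of lower genes was 4 with the replicate block and 14 when the 2 groups were fitted alone, and 0 without BMP7 replicate VI or untreated replicate II. Mki67 was at 11200, 10900, 14500 and 7480 normalized counts and at 9380, 13100 and 4490, and replicate VI was the lowest in each group. Organoid RNA is a mixture, so fewer cells of a type and less RNA per cell cannot be told apart here or in the next results.

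Single genes of the secretory lineages moved in both directions. Among 21 enteroendocrine genes 4 were higher and 5 lower (median log2 -0.07), beside 19.2% higher and 13.2% lower over all genes tested. The count of higher genes was near that share. Neurog3, the factor that commits cells to the endocrine lineage, fell from 123, 110, 193 and 123 normalized counts to 21.8, 23.7 and 18.3 (log2 -2.61 ± 0.33, adjusted p = 8.37e-06, limma). Insm1, a later endocrine factor (log2 -1.27), and Gcg, the proglucagon gene (-1.94), fell with it. Without BMP7 replicate II, 3 of the 21 were lower. Other hormone genes went up. Pyy, peptide YY, had 8 reads in the 4 untreated samples together and 1502 in the 3 BMP7 samples, a ratio of 271 (95% interval 137 to 628, counting error only). Sct, secretin, rose from between 25.8 and 35.5 to between 207 and 222 (log2 2.83), and Tph1, the serotonin synthesis enzyme, by 1.35 on the log2 scale. The pan-endocrine granin Chga was at 635 to 1100 and 850 to 1220 and did not pass.

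The Paneth and goblet genes that passed were all lower with BMP7. Of 13 Paneth genes 0 were higher and 3 lower (8 with the replicate block, 6 by DESeq2, and 10 lower and 1 higher when the 2 groups were fitted alone). Of 14 goblet genes 0 were higher and 4 lower (7 with the block). These counts and the tuft cell count below stand beside 19.2% higher and 13.2% lower over all genes tested. Lysozyme, Lyz1, was at 45000 to 57600 and 29400 to 37900 and did not pass (adjusted p = 0.106, limma), but passed with the block (adjusted p = 0.0171). The differences of 2 of the 13 Paneth genes were positive. Mmp7 went up, at 3350 to 4270 and 4280 to 5160, and did not pass. The lower Paneth genes were Pnliprp2 (log2 -1.0) and the defensin genes Defa21 (-1.06) and Defa22 (-1.22), whose near-identical copies leave their reads uncertain. The goblet product Zg16 (log2 -1.22) and the factor Creb3l1 (-0.79) fell, while Muc2 and Spdef did not pass. Without any 1 of BMP7 II, BMP7 VI or untreated II, III and VI, 2 of the 14 goblet genes were lower. Of 10 tuft cell genes 4 were higher and 0 lower, led by the actin-bundling gene Avil (log2 1.26). Without untreated replicate IV, BMP7 replicate II or BMP7 replicate VI, 2 of the 10 were higher, and the call for Dclk1 (log2 0.60) was lost without BMP7 replicate II.

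Epithelial defence genes moved in both directions. Of 24 tested, 9 were higher and 5 lower, beside 19.2% and 13.2% over all genes tested. Cxcl16, a transmembrane chemokine, went from 922, 666, 649 and 585 normalized counts to 3640, 2940 and 3810 (log2 2.31 ± 0.18, adjusted p = 6.00e-08, limma), and Tnfaip3, a brake on NF-kappaB, rose by 1.61 on the log2 scale. Ccl25, the chemokine of the small intestine, fell from 2990, 2600, 3150 and 3570 to 665, 854 and 915 (log2 -1.93 ± 0.20, adjusted p = 8.48e-07, limma). Pigr, which carries IgA across the epithelium (log2 -1.53), Nlrp6, an inflammasome sensor (-1.49), and the lectin gene Reg3g (-2.50) fell too. Of 18 p53 and growth arrest genes 8 were higher, with Gadd45a (log2 1.81) and Cdkn1a (1.17) at the head, and 5 lower, such as Sesn1 (-0.69) and Ccng1 (-0.43). Without BMP7 replicate II or BMP7 replicate VI, 2 were lower.

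Transcription factors of the small intestine moved in both directions. Of 17 regional and enterocyte transcription factors 5 were higher and 3 lower (5 lower with the replicate block). The shares over all genes tested were 19.2% higher and 13.2% lower. Hnf4a was at 16700 to 18900 and 16700 to 18700 normalized counts and Cdx2 at 1740 to 2490 and 2040 to 2470, and neither passed. Gata4 was at 2500 to 2750 and 1970 to 2310 and was not among the 3 called lower. Cdx1 (log2 -0.67), Hnf4g (-0.84) and Ppara (-0.75) fell, the last not without BMP7 II, untreated IV or untreated VI, and Prdm1, a repressor of the fetal and suckling period (log2 2.51), Onecut2 (1.40) and Klf5 (0.73) rose. Of 13 gastric genes 5 were higher and 1 lower, and the list did not rise as a whole (median log2 -0.25, 6 of 13 positive). Cym, the milk-clotting protease chymosin, led all genes by fitted difference, at 2.66, 0, 4.44 and 26.4 without ligand and 1110, 1230 and 3120 with it (log2 8.39 ± 1.13, adjusted p = 1.69e-05, limma). Ctse, cathepsin E (log2 4.78), and Anxa10 (2.41) rose too. Pgc went the other way, at 90.9 to 191 without ligand and 64.5 to 89.3 with it. Tff1 was at 16.6 to 678 and 11.8 to 46.2.

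Several of the genes that rose most had nearly no reads without ligand. Cyp21a1, a steroid hydroxylase gene, had 0 reads in all 4 untreated samples and 98.9, 115 and 167 normalized counts with BMP7. Even its lowest BMP7 sample was at least 38.4-fold higher than the level of 3 reads per untreated library. Alox12, an arachidonate lipoxygenase, had 5 reads in the untreated and 631 in the BMP7 samples (ratio 182, 95% interval 77.5 to 562, counting error only). Aldh1a3, a retinoic acid synthesis enzyme, went from 154, 92.9, 71.0 and 136 to 4230, 3880 and 5950 (log2 5.39), and Acsbg1 (6.12), the myelin gene Pmp22 (5.44) and Trim29 (5.12) followed. BMP7 VI was the highest sample for each of the 10 genes that rose most.

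The genes that fell most included transport, secreted and muscle-type genes. Slc14a1, a urea transporter and stem cell list member, fell from 190, 132, 181 and 95.8 normalized counts to 4.54, 8.20 and 1.92 (log2 -4.78 ± 0.62, adjusted p = 1.14e-05, limma). Sfrp5, a secreted Wnt inhibitor, fell from 148, 202, 159 and 149 to 10.9, 21.9 and 11.5 (log2 -3.45), and the water channel gene Aqp4 from between 2520 and 3350 to between 269 and 440 (log2 -3.11). Tmem182 (log2 -3.73), the kinase gene Mylk3 (-3.71), Hemgn (-3.49), Vwa2 (-3.39) and the retinol-binding gene Rbp7 (-3.38) were the others. Gvin1 had the largest fitted fall (log2 -5.92 ± 1.89), at 839, 1540, 2950 and 685 against 240, 0 and 37.5. It has near-identical copies, and its call was lost under 4 alternatives, among them leaving out BMP7 III and leaving out untreated IV.

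**Figure D3:**
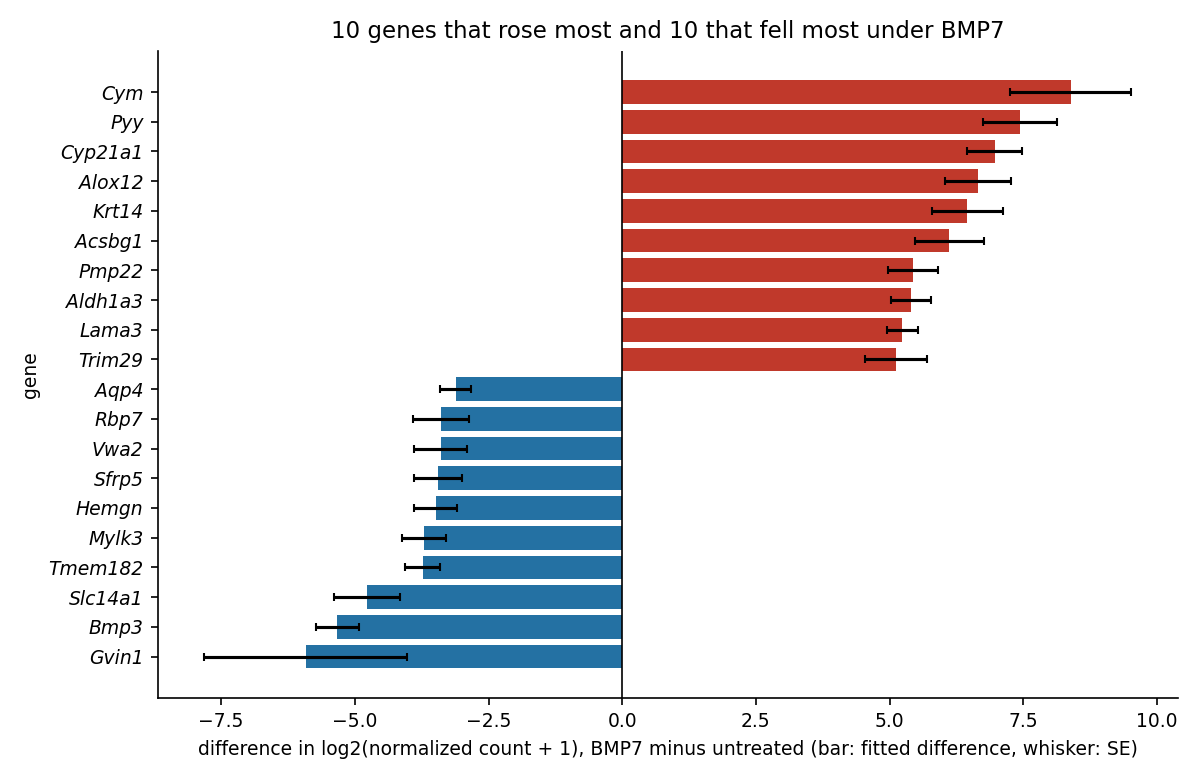
Fitted log2 difference (BMP7 minus untreated) with its SE for the 10 strongest rises and the 10 strongest falls. Rises run from 5.12 for Trim29 to 8.39 for Cym, and falls from -3.11 for Aqp4 to -5.92 for Gvin1, which has the widest SE.

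Markers of other cells were low, apart from Pecam1 and Cd14. The summed level of the 10 mesenchymal markers in the table was 15.7 to 58.5 normalized counts in untreated and 34.6 to 126 in BMP7 samples, with 1 member past the filter on low values and 0 called (1 with the replicate block, by edgeR, by DESeq2 and without untreated replicate II). Col3a1 and Des, named like Acta2 after their values were seen, had 0 reads in all 7 samples, Pdgfra was at 0 to 1.78 and 0.962 to 9.07, and Acta2, at 101 in BMP7 II, made up most of the highest sum. The immune cell marker sum was 275 to 329 and 441 to 612, and of 6 tested members 3 were higher (Cd14, Trac and Csf1r) and 1 lower (Lyz2, a call lost without any 1 of the BMP7 samples or untreated II, III and IV). Cd14 made up most of that sum, at 155 to 214 and 316 to 432, while the pan-leukocyte gene Ptprc was at 3.32 to 10.7 and 3.64 to 9.07. Of 3 tested endothelial and neural markers 0 passed. The sum of the endothelial, neural and red cell markers was 608 to 800 and 602 to 740. Pecam1, at 569 to 774 and 583 to 713, made up most of it. Of 8 tested epithelial identity genes 6 were higher and 0 lower, with Epcam at 18700 to 22100 and 36200 to 44000.

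BMP5, the ligand nearest to BMP7, was then compared with it directly. The 3 BMP5 samples gave 3884 genes past the threshold against the same untreated samples (26.3%), and the comparisons share those controls. Tested against each other, BMP7 and BMP5 differed in 2 of 14746 genes (0.0136%), 1 higher and 1 lower with BMP7 (0.00678% each), while 347 had an unadjusted p under 0.05, edgeR called 4 and DESeq2 23. With the replicate block 6 differed, 3 higher and 3 lower. Leaving out 1 BMP7 or BMP5 sample gave 0 to 9 genes. The BMP5 samples were uneven, and BMP5 II lay nearer to the untreated samples than BMP5 III and VI in several genes. Pyy was at 48.4 in BMP5 II and at 537 and 508 in BMP5 III and VI. Olfm4 was at 64800 in BMP5 II and at 20400 and 32900 in BMP5 III and VI. In Id3 BMP5 VI lay nearest. Without BMP5 II 0 genes passed. Tbx3, a T-box repressor, was at 1890, 1400 and 1390 normalized counts with BMP7 and 651, 914 and 603 with BMP5 (log2 1.12 ± 0.18, adjusted p = 0.0468, limma). Ptprt, a receptor tyrosine phosphatase gene named after its values were seen, was at 10.9, 9.11 and 16.4 with BMP7 and 42.2, 34.3 and 51.1 with BMP5 (log2 -1.75 ± 0.28, adjusted p = 0.0468, limma). In Ptprt the BMP7 samples lay around or under the untreated range of 15.8 to 24.0 and the BMP5 samples above it. Neither gene passed when the 2 groups were fitted alone.

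Genes nearest to the threshold, chosen after their values were seen, included core BMP targets. Id3 was at 123, 378 and 61.1 with BMP5, below each of the 3 BMP7 samples (log2 2.49 ± 0.45, adjusted p = 0.109, limma), and Id1 was at 667, 1070 and 792 (log2 1.15 ± 0.21, adjusted p = 0.109, limma). Bmp3 was higher in each BMP5 sample, at 251, 65.8 and 159 (log2 -2.28 ± 0.43, adjusted p = 0.113, limma), and so was Neurog3, at 95.1, 53.7 and 69.3 (log2 -1.70 ± 0.35, adjusted p = 0.179, limma). A p that misses the threshold does not show that the ligands act alike at these genes. The median log2 difference from untreated of the 14 BMP targets was 2.66 with BMP7 and 1.05 with BMP5, and that of the 19 fetal-like genes was 2.32 and 2.16. Of the members of all lists, 0 passed between BMP7 and BMP5.

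**Figure D4:**
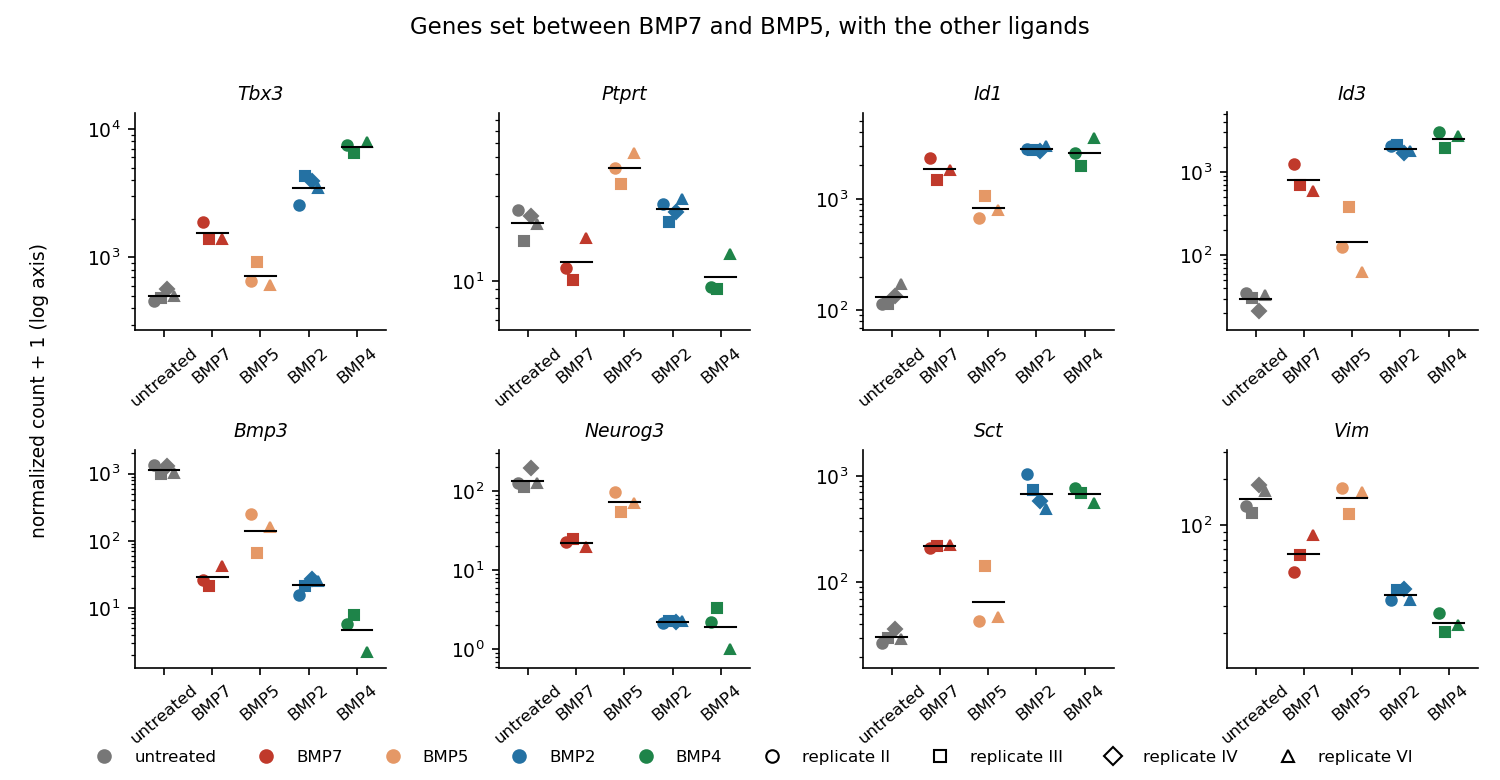
Normalized counts plus 1 on a log axis for 8 genes in untreated (n = 4), BMP7 (n = 3), BMP5 (n = 3), BMP2 (n = 4) and BMP4 (n = 3) samples, with marker shape for the replicate number and a line at the mean of the log values. Of the 8 genes Tbx3 and Ptprt passed the test between BMP7 and BMP5. Most of the genes were picked with their BMP5 values known, so the gap between these groups follows from that choice.

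BMP2 and BMP4 differed from BMP7 far more widely. BMP7 differed from BMP2 in 9262 genes (62.8%), 4625 higher and 4637 lower with BMP7 (31.4% each), and from BMP4 in 8818 (59.8%), 4628 higher (31.4%) and 4190 lower (28.4%). Against the shared untreated samples BMP2 changed 75.1% and BMP4 65.1% of the genes tested. The authors' scaling left larger sums in BMP2 and BMP4 samples. With equal totals the splits became 6948 higher and 2527 lower for BMP2 and 6641 and 2668 for BMP4, and the median of all genes moved from -0.04 to 0.35 and from 0.00 to 0.33.

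Crypt and cell cycle genes were mostly higher with BMP7 than with BMP2 or BMP4. Olfm4 was at 18000 to 23400 normalized counts with BMP7 and 66.5 to 549 with BMP2 (log2 7.35 ± 0.53, adjusted p = 2.28e-09, limma), and Lgr5 at 1070 to 2050 and 3.53 to 17.7 (log2 7.28 ± 0.40, adjusted p = 1.51e-10, limma). All 24 cell cycle genes were higher with BMP7 than with BMP2, and 22 were higher than with BMP4. Of 22 stem cell and Wnt genes, 17 were higher and 2 lower against BMP2 and 21 higher against BMP4. Nox1, an NADPH oxidase gene, was at 878 to 1060 with BMP7, 2.27 to 26.6 with BMP2 and 3.42 to 15.6 with BMP4. Relative to BMP7, Pyy was much higher with BMP2, at 7540 to 14000 against 298 to 562.

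Most enterocyte genes were lower with BMP7 than with BMP4, and against BMP2 the lists differed. All 17 brush border hydrolases were lower with BMP7 than with BMP4, and 11 were higher than with BMP2. Of 16 transporters 14 were lower than with BMP4, and 6 were higher and 2 lower than with BMP2. Of 21 fat absorption genes 20 were lower than with BMP4, and 5 were higher and 11 lower than with BMP2. Of 14 microvillus genes 12 were lower than with BMP4 and 2 higher, and 12 were lower than with BMP2. The goblet product Zg16 was at 149 to 167 with BMP7 and 13500 to 15900 with BMP4 (log2 -6.57 ± 0.30, adjusted p = 1.42e-11, limma). For the adhesion and fetal-like lists the order turned. BMP7 was above BMP4 in 16 of 19 integrin and laminin genes and 12 of 19 fetal-like genes, and below BMP2 in 13 of each. Alox12, at 132 to 267 with BMP7, had no read in any BMP4 sample.

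**Figure D5:**
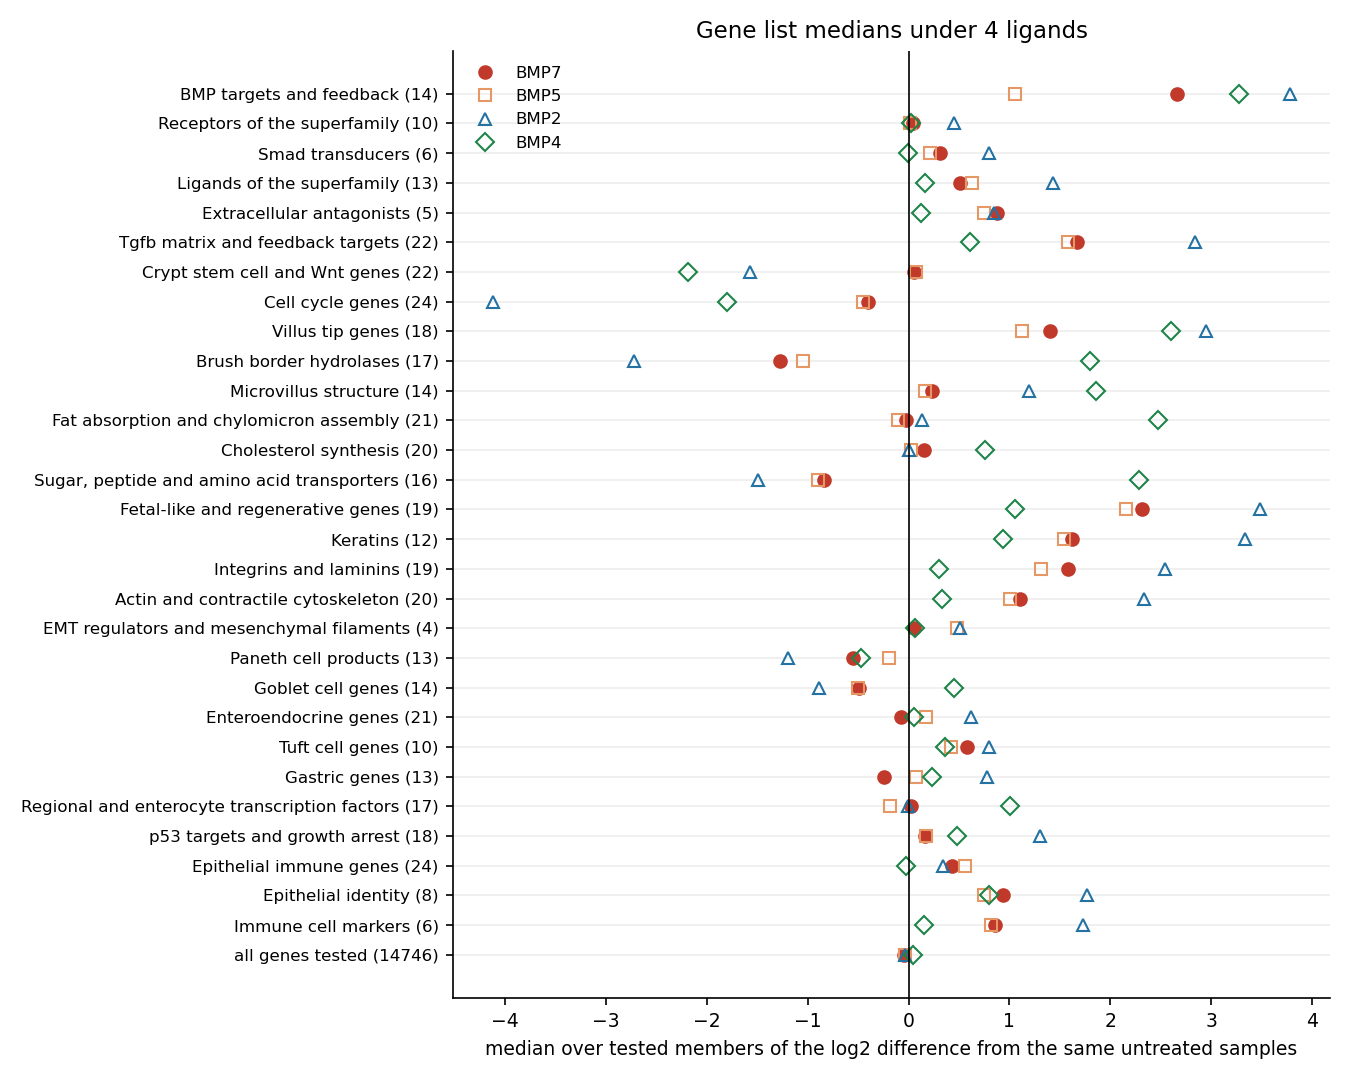
Median log2 difference from the same 4 untreated samples over the tested members of each gene list under BMP7 (filled), BMP5, BMP2 and BMP4 (open markers), which share those controls. BMP7 and BMP5 lie close together in most lists, the BMP targets (2.66 and 1.05) being the widest apart, and brush border hydrolases are at -1.28 with BMP7 and 1.80 with BMP4. The mesenchymal list and the endothelial, neural and red cell list are not drawn.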

How the data were processed

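Per the labels, mRNA libraries (KAPA) were sequenced single-end on a NextSeq 500 in more than 1 run, with no sample assigned to a run. The deposited BMP table is a signal, gene counts that the authors divided by a size factor per sample. The submitters' processing notes name Trim Galore, Salmon, DESeq2 and GRCm39, and the file header names no method. All 180721 values of at most 20 reads were whole multiples of 1 step (100%, tolerance 0.02 reads plus 0.6% of the value), which gave the reads. Values over 999 reads (21% of those above 0) are known to 3 digits.

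Genes with a mean of at least 10 entered a limma 3.58.1 fit (R 4.3.3) with an intensity trend, on log2(value + 1) of all 20 samples in 6 groups (14 residual degrees of freedom), which understates changes of low genes. The 14746 genes tested came from 29413. Tests were two-sided, with Benjamini-Hochberg adjustment over all genes tested. Since the labels name no separate animals or cultures, p-values measure the spread between these samples, which may be technical. Replicate numbers come from the sample titles. Deviations from the group means correlated at 0.294, 0.236 and 0.256 between BMP7 and untreated samples of the same number (II, III and VI). They correlated at 0.286, 0.150 and 0.489 between BMP7 and BMP5, and at 0.206, 0.293 and 0.239 between BMP7 and BMP4. With BMP2 they were 0.17, -0.107 and 0.218. For each BMP7 sample the same number correlated best, except that BMP7 III correlated better with BMP2 IV (0.158) than with BMP2 III. A fit of all 20 samples with the number as a block was an alternative. The others were pseudocounts, filters, scalings, a 2-group fit, edgeR 4.0.16, DESeq2 1.42.0 and leaving out single samples. Scripts were tested on simulated data.

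Of 527 members of 31 gene lists, 511 were matched by symbol. Members and lists were chosen with earlier results of these data known. Named genes are the 10 that rose and 10 that fell most (called, mean of at least 50, no overlap), preset leads of each list, the 3 smallest p each way per list and 5 each way per other ligand. Any other gene was chosen after its values were seen, among them those named in the report as such. Intervals and the floor of 3 reads cover counting error only, since reads copied by PCR and carrying no molecular identifiers do not count molecules.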

Additional observations from a re-analysis of the deposited data

Results flagged for a closer look

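A single untreated sample stood apart from the other 3 in 9 of the 183 named genes checked, by the ratio of its gap to the range of the group (Dixon's criterion at 95%). Chance gives about 1 in 20. All values are normalized counts. Untreated IV was high for Apob (37700, the others 17000 to 18400), Fn1 (40.8), Neurog3 (193) and Tff1 (678, the others 16.6 to 57.8). Untreated VI was high for Ascl2 (363) and Gm830 (345), low for Acvr2b (89.2) and at 0 for Gm10171, where the others were at 452 to 470. Untreated II was high for Smad2 (1370, the others 1190 to 1210). In Fn1, Neurog3, Smad2 and Gm830 every BMP7 sample lay outside the untreated range even so.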

How the results depend on the processing

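Of 198 named genes tested against untreated organoids, 149 kept direction and side of the threshold under all 17 alternatives, 31 lost a call under at least 1, 18 gained one and 0 reversed. The count of changed genes, 4773, ranged from 4330 (filter at a mean of at least 50) to 6689 (replicate block, the pairing by number) over full sets of samples and from 3517 to 4673 with 1 sample left out. Lower genes numbered 1940, 2938 with quantile normalization, 3148 with the replicate block and 1209 to 1870 with 1 sample left out, the lowest without BMP7 replicate II. The block moved the other list counts by at most 1.5 times, except where both counts stand in the report and in 2 small lists (lower Smad genes 0 to 1, lower EMT genes 1 to 2). Several calls that appeared only with the block are given above, such as those of Tob1, Smad1, Apob, Axin2 and Lyz1. Besides the calls so given and Nox1 (adjusted p = 0.0465 with the block, limma, higher), the block changed no other call of a gene named in the report. Gata4 and Pgc are left out of that statement.

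The 2 genes between BMP7 and BMP5 (1 higher, 1 lower) depend on the setting. They numbered 0 with a pseudocount of 0.1 or a filter at 50 (0 higher, 0 lower), 7 with a pseudocount of 10 (3 higher, 4 lower), 4 without a filter (3 lower), 1 with the same total (0 higher), 1 with quantile normalization (0 lower), 6 with the replicate block (3 higher, 3 lower), 4 by edgeR (3 lower) and 23 by DESeq2 (6 higher, 17 lower). Fitting the 2 groups alone also gave 2, of which 0 were shared with the reported ones. With 1 sample left out they numbered 0 to 9 (0 to 5 higher, 0 to 4 lower), and 9 without BMP5 replicate III. The cause of these differences was not tested. Against BMP2 the same total gave 6948 higher and 2527 lower genes, and against BMP4 2668 lower.

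Genes near 3 reads are limited by depth, and small changes by the 3 BMP7 samples. Sequencing run cannot be told apart from the other differences between samples.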
